A study of Homo sapiens
Mus musculus and Homo sapiens with 2 samples.

Results

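A set of 10 genes of the extracellular matrix and of the contractile fibroblast were followed in NIH/3T3 cells, an immortalised mouse fibroblast line, in a single-cell experiment that separates newly made RNA from RNA made earlier. The genes are Col1a1, Col1a2, Col3a1, Fn1, Sparc, Bgn, Lgals1, Thbs1, Tagln and Acta2. They were chosen by symbol and by no cut on a measured value, but with earlier results of these data known. All 10 were found among the 49585 mouse genes of the annotation, which holds 113153 human and mouse genes in all. The cells came from a mixture with HEK293T, a human embryonic kidney line, and were those that the authors' cell annotation calls mouse. The other sample of the study was A549, a human lung carcinoma line, taken at 0, 2, 4, 6, 8 and 10 h of dexamethasone.

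The cells fell into 4 labelling groups, and the labels name no replicate, so each counts as 1 culture. S4U (4-thiouridine) is a nucleoside that cells build into RNA while it is being made. Iodoacetamide (IAA) alkylates it in the fixed cells, so that reverse transcription leaves a T-to-C change by which a read can be called new. The first group received 200 µM S4U for 6 h and IAA (425 NIH/3T3 cells), and is called labelled below. The second received S4U and no IAA (1060 cells), the third IAA and no S4U (559 cells), and the fourth neither (1045 cells). All cells were cultured in high-glucose DMEM with serum, fixed in paraformaldehyde, frozen and thawed before the chemistry. These 3089 cells were part of 6307 mixture cells, of which 43 further mouse cells had no labelling group and were not used. The sample's treatment label also lists dexamethasone, while its protocol gives that drug to A549 cells only.

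Fibroblasts build connective tissue. Type I collagen, made of the products of Col1a1 and Col1a2, and type III collagen, the product of Col3a1, assemble into fibrils outside the cell. Fibronectin (Fn1) forms the early scaffold on which collagen is laid down, and integrins on the cell surface hold on to it. SPARC (osteonectin) and biglycan (Bgn, a small leucine-rich proteoglycan) bind collagen and influence how fibrils form. Galectin-1 (Lgals1) is a lectin that binds galactose-containing sugars inside and outside the cell, and thrombospondin-1 (Thbs1) is a matrix glycoprotein that can activate TGF-beta. Transgelin (Tagln) and smooth muscle alpha-actin (Acta2) belong to the contractile apparatus and mark myofibroblasts. mRNAs of long-lived structural proteins are often stable, and a stable mRNA gains a smaller share of new molecules over a fixed labelling time.

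The 4 groups held 3085966, 8963836, 4323104 and 9136422 mouse counts, in the order labelled, S4U only, IAA only and neither, with medians of 6695, 7624, 7151 and 7938 counts per cell. Protein-coding genes took 72.27% and 72.92% of mouse counts in the groups with IAA, against 76.93% and 77.25% in those without it. The 3 genes Gm42418 and the mitochondrial ribosomal genes mt-Rnr1 and mt-Rnr2, took 25.7% and 25.4% with IAA, against 21.27% and 21.09% without it. New counts were 33.12% of all mouse counts in labelled cells, against 0.7846% with S4U only, 1.085% with IAA only and 0.7277% with neither. Human cells of the same groups carried 0.3647% to 0.6966% mouse counts. No whole cell name occurred in both samples, although 363 of 370 reverse transcription barcodes were used in both and 664 cells had the same number and barcode in their names. Doublets of 2 mouse cells were not removed, because no doublet score was used for the mixture. All intervals below are exact 95% intervals for counting error only. Nothing measures the spread between cultures, so no test was made between groups.

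As fibroblasts, the labelled NIH/3T3 cells held 19494 counts of Vim (vimentin, the intermediate filament of mesenchymal cells), 7066 of S100a4 and 567 of Prrx1, a mesenchymal transcription factor. Of 11 fibroblast markers, 5 had at least 500 counts, but Thy1 had 3 and Fap had 0. The 11 summed to 10887 CPM (counts per 1000000 mouse counts) in labelled cells, 12623 with S4U only, 10897 with IAA only and 12475 with neither. The 6 epithelial markers summed to 2.916 to 5.144 CPM over the 4 groups, the 4 endothelial ones to 2.268 to 4.016, the 5 of macrophages and other leukocytes to 2.268 to 5.243, and the 5 of muscle to 0.5473 to 0.9721. The 6 markers of adipocytes and cartilage summed to 138.4 to 206.9 CPM, nearly all of it Sox9 (427 counts in labelled cells), and the 4 neural ones to 53.67 to 71.91 CPM, with 140 counts of Nes and 41 of Tubb3 in labelled cells. The part of these in the results below was not tested.

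In labelled cells 6 of the 10 genes had at least 500 counts, Col3a1 and Acta2 had fewer, and Thbs1 and Tagln had almost none. Counts here are of 3′ ends, and each gene's CPM is compared with itself only. Col1a2 (ENSMUSG00000029661) had 13085 counts in labelled cells, 39982 with S4U only, 18624 with IAA only and 39247 with neither. These were 4240, 4460, 4308 and 4296 CPM, a spread of a few percent. Its partner Col1a1 (ENSMUSG00000001506) had 2892, 9299, 3860 and 8676 counts, or 937.1, 1037, 892.9 and 949.6 CPM. Col3a1 had 129, 440, 167 and 360 counts, or 41.8, 49.09, 38.63 and 39.4 CPM. The S4U-only group was the highest of the 4 for all 3 collagen genes.

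Fn1 had 6694, 17924, 8863 and 17522 counts in the same order of groups, or 2169, 2000, 2050 and 1918 CPM. It was the only 1 of the 8 well-counted genes that was highest in labelled cells and higher in both IAA groups than in both groups without IAA. Sparc had 1052, 1107, 968.3 and 1052 CPM, and Bgn 949.5, 992.3, 885.5 and 931.8 CPM. Lgals1 had 1189, 1309, 1121 and 1278 CPM, with both IAA groups below both others.

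Acta2 was a low gene with 171, 539, 249 and 547 counts, or 55.41, 60.13, 57.6 and 59.87 CPM. Thbs1 had 2, 8, 7 and 9 counts, and Tagln 2, 14, 3 and 9, so neither passed 2 CPM in any group. In labelled cells 8 genes therefore had at least 100 counts, and Thbs1 and Tagln did not. Counts show that a gene was read, and do not decide whether the label of the gene set holds for it. Across cells, as given below, Lgals1 was weakly negative with Col1a1, and Acta2 kept no one sign with Col1a1. The sources used here do not say how reads that overlap several genes were counted, so few counts are not taken to show that a gene was silent.

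**Figure D1:**
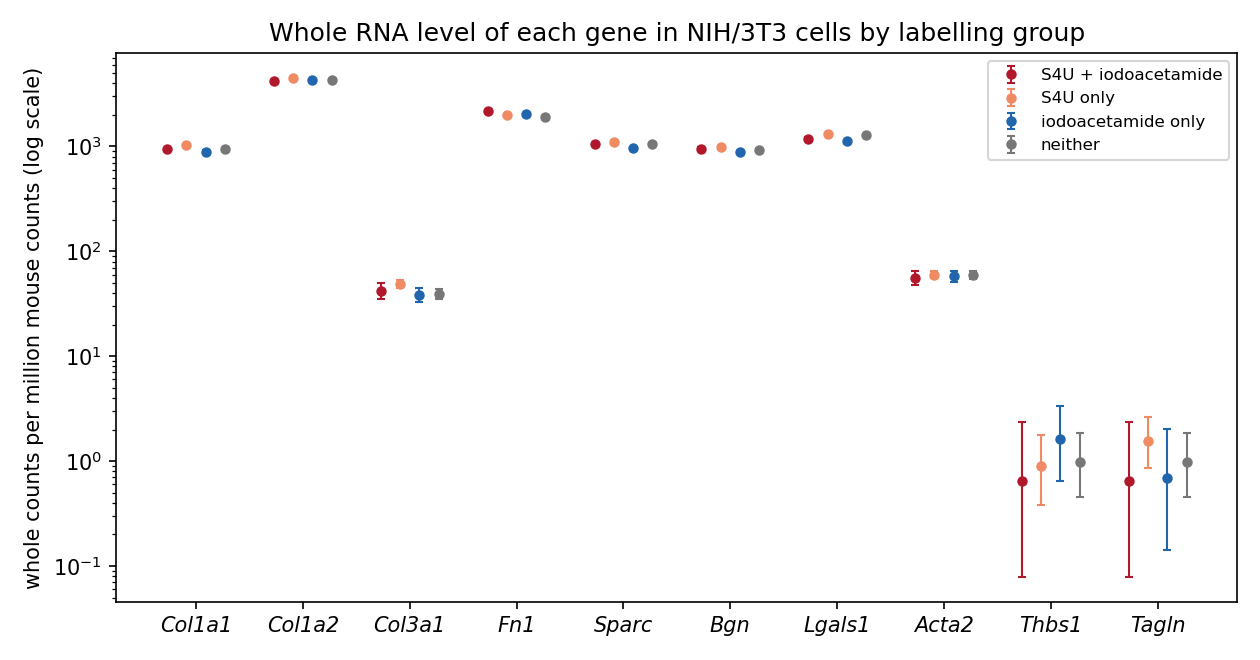
CPM (log axis) of the 10 genes in the 4 labelling groups of NIH/3T3 cells, with 1 culture per group and bars for the exact 95% Poisson interval; genes are not to be compared with each other, since counts are of 3′ ends. Within each of the 8 well-counted genes the 4 groups lie close together, from 4240 to 4460 for Col1a2, while Thbs1 and Tagln lie between 0.6481 and 1.619.

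The same assay measured the human genes of the same names in the other line. In A549 cells, pooled over 6 times of dexamethasone that include untreated cells at 0 h, THBS1 had 44368 counts and TAGLN 3979 counts. THBS1 rose at each time, from 108.6 CPM at 0 h to 313.8 at 10 h, and TAGLN had 15.18 to 23.56 CPM over the times. FN1 had 396.5 to 506.3 CPM and LGALS1 192.6 to 219.3 CPM there. COL1A2 had 11 counts and BGN 20 in all A549 cells. HEK293T cells had few counts of any of the 10 genes, with FN1 at 17.37 CPM in the labelled group.

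The new RNA of these genes was a small share of the whole. In labelled cells the 10 genes together had 5473 new counts of 32818, or 16.68% (16.27% to 17.08%). The same genes had 0.8364% with S4U only, 1.196% with IAA only and 0.7559% with neither, each close to the share over all mouse counts of that group. All other protein-coding genes together had 42.4% new (42.34% to 42.47%) in labelled cells. The 10 genes accordingly made up 1.472% of whole protein-coding counts and 0.5839% of the new ones.

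Of the genes with at least 500 counts Col1a2 had the largest new share, and Col1a1 could not be told from Sparc. A read is called new by its T-to-C changes, and the T positions in each gene's counted 3′ ends were not measured. Differences in share between genes are therefore not read as differences in RNA turnover. Col1a2 had 2807 new counts, 21.45% of its whole counts (20.75% to 22.17%) in labelled cells, against 1.183% with S4U only, 1.52% with IAA only and 1.05% with neither. Col1a1 had 486 new counts or 16.8% (15.46% to 18.22%), against 0.9356%, 1.321% and 0.7607% in the same order. The intervals of the 2 chains of type I collagen did not overlap, with Col1a2 the higher. Col3a1 had 32 new counts of 129, 24.81% (17.63% to 33.18%), against 0.6818%, 1.796% and 1.111%. That interval covers the value of Col1a2, so their order is not detectable at this depth.

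Fn1 and the collagen-binding proteins were lower than Col1a2. Sparc had 538 new counts or 16.58% (15.31% to 17.9%) in labelled cells, against 0.4837% with S4U only, 1.099% with IAA only and 0.4264% with neither. Fn1 had 954 or 14.25% (13.42% to 15.11%), against 0.4463%, 0.8124% and 0.3995%. Bgn had 216 or 7.372% (6.452% to 8.379%), against 0.6183%, 0.9404% and 0.5286%. Bgn was the lowest of the 8 genes, and its interval overlapped that of no other gene with 500 or more counts among the 10.

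Lgals1 had 412 new counts of 3668, or 11.23% (10.23% to 12.3%), against 0.6391% with S4U only, 0.8254% with IAA only and 0.7109% with neither. Acta2 had 25 of 171, or 14.62% (9.69% to 20.82%), against 0.9276%, 1.205% and 1.097%. In order from high to low the genes with at least 500 counts were Col1a2, Col1a1, Sparc, Fn1, Lgals1 and Bgn. Of the neighbours in that order only Col1a1 and Sparc had overlapping intervals, and in cells at or above the median depth their order turned, with 15.64% for Col1a1 and 16.88% for Sparc. Sparc and Fn1 came close, at 15.31% and above for Sparc and at 15.11% and below for Fn1. Thbs1 had 2 new counts of 2 and Tagln 1 of 2, from which no share can be read.

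**Figure D2:**
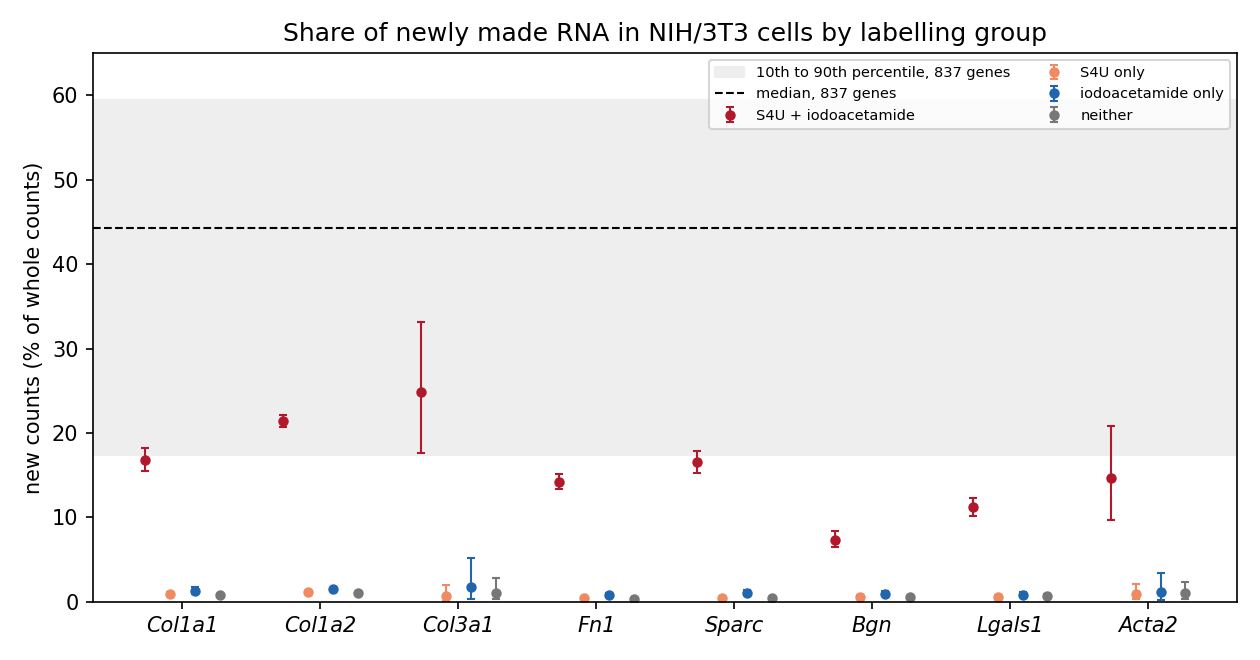
New counts as a percentage of whole counts for 8 genes in the 4 labelling groups of NIH/3T3 cells, with exact 95% binomial intervals, 1 culture per group; the dashed line and grey band are the median and the 10th to 90th percentiles of 837 protein-coding genes in labelled cells. The labelled values run from 7.372% (Bgn) to 24.81% (Col3a1), all below the median of 44.33%, and the other groups lie at or below 1.796%.

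Among the 837 mouse protein-coding genes with at least 500 counts in labelled cells, the median new share was 44.33%, with quartiles at 28.29% and 54.55% and a range of 4.657% to 69.28%. All 6 of the 10 genes that reached 500 counts lay below the lower quartile of these genes, with a median of 15.42%. Bgn stood at percentile 0.2389, with 2 genes below it. Lgals1 stood at 1.912, Fn1 at 5.137, Sparc at 7.885, Col1a1 at 8.244 and Col1a2 at 16.37. These are ranks of called shares, with the same limit that T positions were not measured. Among the 286 genes with at least 1000 counts Col1a2 stood at percentile 27.27, above the lower quartile, with Col1a1 at 15.03, Sparc at 14.69 and Fn1 at 9.091. Over all 10 genes the median was 16.69%, which includes the unreadable shares of Thbs1 and Tagln.

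The low share was seen cell by cell. In the 406 labelled cells with at least 20 counts of the 10 genes, the share had a median of 16.26% and quartiles of 12.08% and 20.78%. It was below the cell's own share over the other protein-coding genes, whose median was 42.31%, in all 406 cells. The SD over cells was 6.727 percentage points, and binomial sampling of the counts alone gives 4.782. Across these cells the share of the 10 genes and the share of the other protein-coding genes had a Pearson r of 0.2729, and both share the cell's depth and labelling.

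The new share was also read by the depth of the cell. With labelled cells split into equal parts by counts (medians of 3472, 6695 and 10788), the 10 genes had 17.48%, 16.48% and 16.44% new from the shallowest to the deepest. The other protein-coding genes had 41.17%, 41.76% and 43.12%. Col1a1 fell steadily with depth, with 19.09%, 17.98% and 14.65% of 707, 929 and 1256 counts, while Fn1 (14.46%, 13.22% and 15%) and Sparc (14.26%, 18.09% and 16.46%) had no one direction.

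Human genes of the same names had 2 h of S4U in A549, so their shares are given side by side and not compared. Pooled over the 6 times of dexamethasone, with 0 h included, FN1 was 7.527% new (7.362% to 7.694%), LGALS1 4.229%, TAGLN 4.021% and COL1A1 6.064%. ACTA2 had 21.79% and THBS1 29.08% (28.66% to 29.5%). The single times spread wider than these intervals. They ran from 5.511% to 9.112% for FN1, 3.487% to 4.583% for LGALS1 and 1.623% to 6.034% for TAGLN. COL1A1 had 2.165% to 9.115%, ACTA2 15.73% to 33.33% and THBS1 24.05% to 34.26%. In that line the share of THBS1 was above those of FN1, LGALS1 and TAGLN by more than the counting error. In labelled HEK293T cells, which had 6 h of S4U, FN1 had 25 new counts of 116, or 21.55%.

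Related genes, listed by role, were read the same way. Of 81 other matrix genes, 12 had at least 500 counts, with a median new share of 30.21%. Of these 12, 10 lay below the median of all genes. The lowest were Fbln2 (fibulin-2, 18.72%), P4hb (a subunit of collagen prolyl hydroxylase, 19.29%) and Serpinh1 (the collagen chaperone HSP47, 21.12%). The highest were Vcan (versican, a large proteoglycan, 50.43%), Sdc2 (syndecan-2, 45.74%) and Itgav (integrin alpha-V, 38.84%). No test was made of the list as a set.

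Of the 81 genes, 20 had fewer than 10 counts in labelled cells. Chosen after their values were seen, Lum, Eln, Col4a1 and Mmp3 had 0 counts, and Dcn and Postn 1 each.

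The contractile genes had 15 of 28 with at least 500 counts and a median new share of 34.81%, and 14 of these 15 were below the median of all genes. The lowest were Pfn1 (profilin, 12.61%), Cfl1 (cofilin, 16.34%) and Actb (beta-actin, 22.33%). The highest were Zyx (zyxin, 44.74%), Vcl (vinculin, 44.3%) and Cald1 (caldesmon, 38.97%). The 4 of the 28 with fewer than 10 counts, so chosen after their values were seen, were Myl9 and Cnn1 with 3 each, Acta1 (skeletal muscle alpha-actin) with 1 and Actg2 with 0. No gene of the 16 in the list of TGF-beta ligands, receptors, mediators and inhibitors reached 500 counts.

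Over the 4 comparisons between groups described next, whole RNA of the other matrix genes passed 1.5-fold for 2 of 57 (both lower with S4U, where IAA was used) and 1 of 60 (lower with IAA, where S4U was used), and for 0 of 60 in each of the other comparisons. The first pair were Sdc4 (syndecan-4), with 304 counts in labelled and 640 in IAA-only cells and a ratio of 0.6654, and Col11a1, with 17 and 40 counts. The gene lower with IAA was Col5a3, with 12 counts in labelled and 56 in S4U-only cells. The contractile genes had 0 of 24 in all 4 comparisons. The TGF-beta list had 1 of 15 for IAA without S4U, Tgfb2 at 0.5961 on 11 counts with IAA only and 39 with neither, and no gene past 1.5-fold in the other comparisons. Of 12 cell type markers with enough counts, the fibroblast marker Pdgfrb was higher with S4U, at 1.648 where IAA was used and 1.88 where it was not, on 40 counts in labelled, 166 in S4U-only, 34 in IAA-only and 90 in cells with neither. The neural marker Tubb3 was lower, at 0.6382 for S4U with IAA and 0.5365 for IAA with S4U. Over all mouse genes with at least 50 counts over the pair of groups, 6.96% and 4.24% passed for S4U with and without IAA. For IAA with and without S4U 5.97% and 3.49% did. The lists are short and several calls rest on few counts, so these counts say little about the lists.

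Whole RNA of the 8 well-counted genes was compared between groups, with 1.5-fold set as the size of a called difference. None of the 8 passed it in any of the 4 comparisons over all cells, but few genes of the whole table did, so the count says little about these genes. Between labelled and IAA-only cells, which asks what S4U did where IAA was used, 0 of 8 genes passed, where 6.96% of 9206 genes with at least 50 counts over the pair of groups did, and 1.63% of the 1167 genes with at least 1000, called deep below. The ratios of the 8 genes ran from 0.9621 (Acta2) to 1.086 (Sparc), with a median of 1.059, against a median of 1.004 over all genes. The intervals of 4 genes did not include 1, namely Sparc (1.037 to 1.137), Bgn (1.022 to 1.125), Lgals1 (1.016 to 1.107) and Fn1 (1.025 to 1.092), each with a higher value in labelled cells. In cells at or above the median depth of their group Sparc, Bgn and Lgals1 were again above 1, while Fn1 was 0.9923 and Col1a1 0.9695. Col3a1 was 1.082 (0.8533 to 1.37) over all cells and 0.6149 in those cells, so its direction turned and it passed 1.5-fold there. That value rests on part of its 129 labelled and 167 IAA-only counts, and has no interval.

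Between S4U-only cells and cells with neither, a pair that shares no group with the last, 0 of 8 passed, where 4.24% of 10603 genes and 1.46% of the 3503 deep ones did. All 8 ratios were above 1, from 1.004 (Acta2) to 1.246 (Col3a1, 1.081 to 1.436), with a median of 1.047 against 1.024 over all genes. After TMM scaling 7 of the 8 were above 1 and Acta2 was 0.9807, and after DESeq2's size factors 6 were, with Acta2 at 0.9792 and Lgals1 at 0.9989. Col1a1 was 1.092 (1.061 to 1.125).

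IAA was compared in the same manner. Between labelled and S4U-only cells 0 of 8 passed, where 5.97% of 10099 genes and 0.491% of the 2240 deep ones did. Between IAA-only cells and cells with neither 0 of 8 passed, where 3.49% of 10095 genes and 0.195% of the 2567 deep ones did. The median ratios of the 8 genes were 0.9357 and 0.9562, near the medians over all genes, 0.9261 and 0.9319. Fn1 stood apart with 1.085 (1.055 to 1.116) in cells with S4U and 1.069 (1.042 to 1.097) without. Among genes with at least 1000 counts over each pair, 90% lay below 1.063 and 1.04. Lgals1 had 0.9079 (0.8746 to 0.9423) and 0.8772 (0.8482 to 0.9072).

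Scaled to protein-coding counts only, the ratios of both IAA comparisons moved up by 1.064 and 1.059, and 4 and 5 of the 8 genes were above 1 in place of 1 and 2. TMM and DESeq2's size factors moved the median of all genes to 0.9978 and 1.008 with S4U, and to 1.004 and 1.004 without. Fn1 stayed above 1 and Lgals1 below 1 in both IAA comparisons under all of these scalings. With S4U, however, Lgals1 came close to 1, at 0.9664 for protein-coding counts, 0.9782 for TMM and 0.9883 for DESeq2's size factors. Without S4U it was 0.9293, 0.9453 and 0.9454 in the same order. Sparc, Bgn, Col1a2, Col1a1, Col3a1 and Acta2 changed side of 1 with the scaling in at least 1 of the pair, so no direction is given for them.

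The Fn1 ratios also depended on the depth of the cells. In cells at or above the median depth of their group they were 1.001 with S4U and 1.057 without. Col3a1 with S4U was 0.8516 over all cells and 0.5579, past 1.5-fold, in those cells. The second value rests on part of its 129 labelled and 440 S4U-only counts, and has no interval. The median depth was 6695 and 7151 counts in the IAA groups, against 7624 and 7938 in the groups without IAA. The share of Gm42418 and mitochondrial ribosomal counts moved with IAA, and its part in these ratios was not tested.

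**Figure D3:**
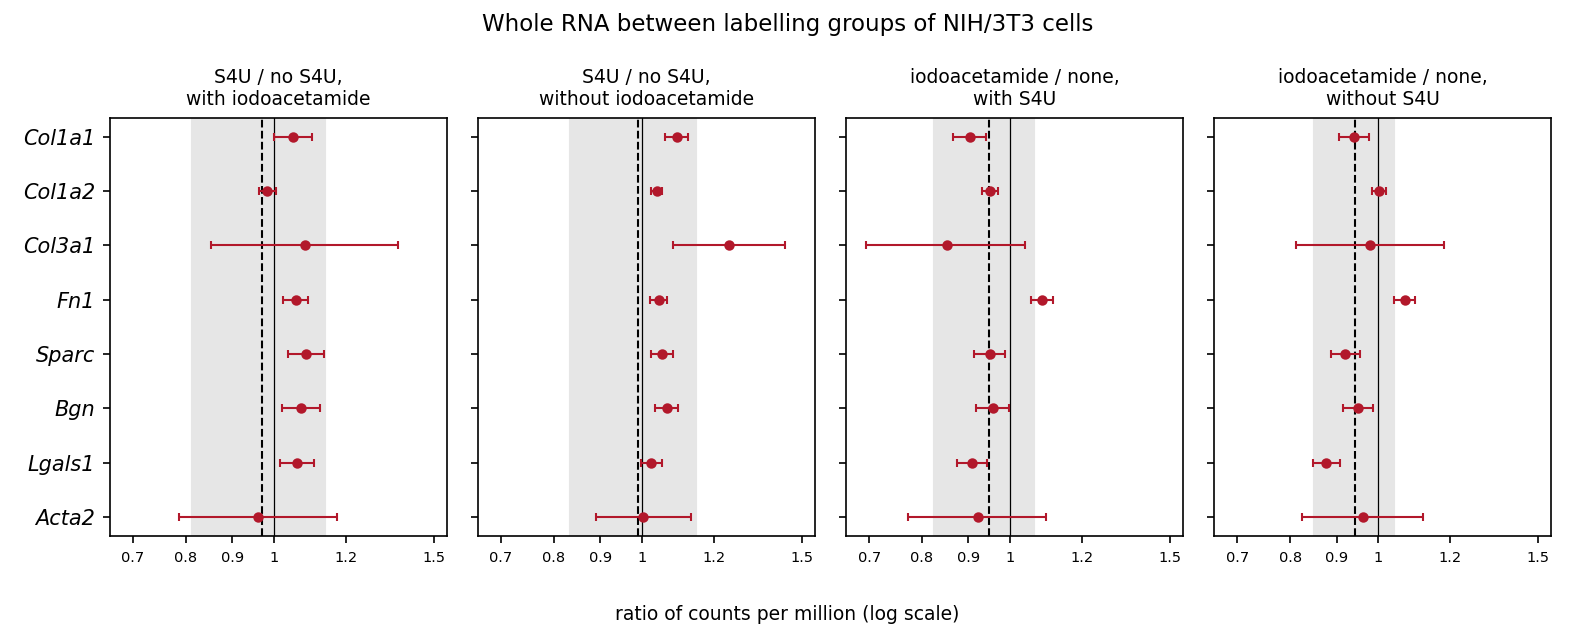
Ratios of CPM (log axis) for 8 genes between labelling groups of NIH/3T3 cells, with exact 95% intervals for counting error; the dashed line and grey band are the median and the 10th to 90th percentiles of genes with at least 1000 counts over the pair of groups. All points lie inside 1.5-fold, and Fn1 is the gene to the right of the band in both IAA panels, at 1.085 and 1.069.

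The matrix genes made up more of the RNA of shallow cells than of deep ones. Cells of each group were split into equal parts by their mouse counts. In labelled cells Fn1 had 3864, 2349 and 1588 CPM from the shallowest to the deepest part, and Col1a1 1514, 967.8 and 757.1 CPM. The ratio of shallowest to deepest for Fn1 was 2.434 (2.291 to 2.585) in labelled cells, 1.886 with S4U only, 2.237 with IAA only and 1.923 with neither.

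For Col1a1 the ratio was 1.999, 1.474, 1.572 and 1.502 in the same order, and for Col1a2 1.533, 1.356, 1.488 and 1.33. Bgn had 1.46, 1.379, 1.554 and 1.377, and Sparc 1.32, 1.216, 1.316 and 1.401. Each of these lay above the 90th percentile of genes with at least 1000 counts over the shallowest and deepest parts of the group, which was 1.222, 1.205, 1.263 and 1.188. Col3a1 had 6.708 (4.129 to 11.13), 2.366, 1.312 and 3.472, on few counts, and with IAA only its interval (0.844 to 1.994) included 1. The medians over those genes were 0.9801, 0.9961, 1.0 and 0.9633.

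Lgals1 did not follow the collagens, with ratios of 0.8398 (0.7601 to 0.9264), 1.014, 1.005 and 1.005. Acta2 had 0.3868 (0.1871 to 0.7219), 0.6685, 1.229 and 0.6411, with the interval of IAA only (0.877 to 1.698) including 1. In the deepest part Fn1 had 1588 CPM in labelled cells against 1687 with S4U only, and 1627 with IAA only against 1593 with neither. In the shallowest part it had 3864 CPM in labelled cells against 3182 with S4U only, and 3640 with IAA only against 3064 with neither.

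**Figure D4:**
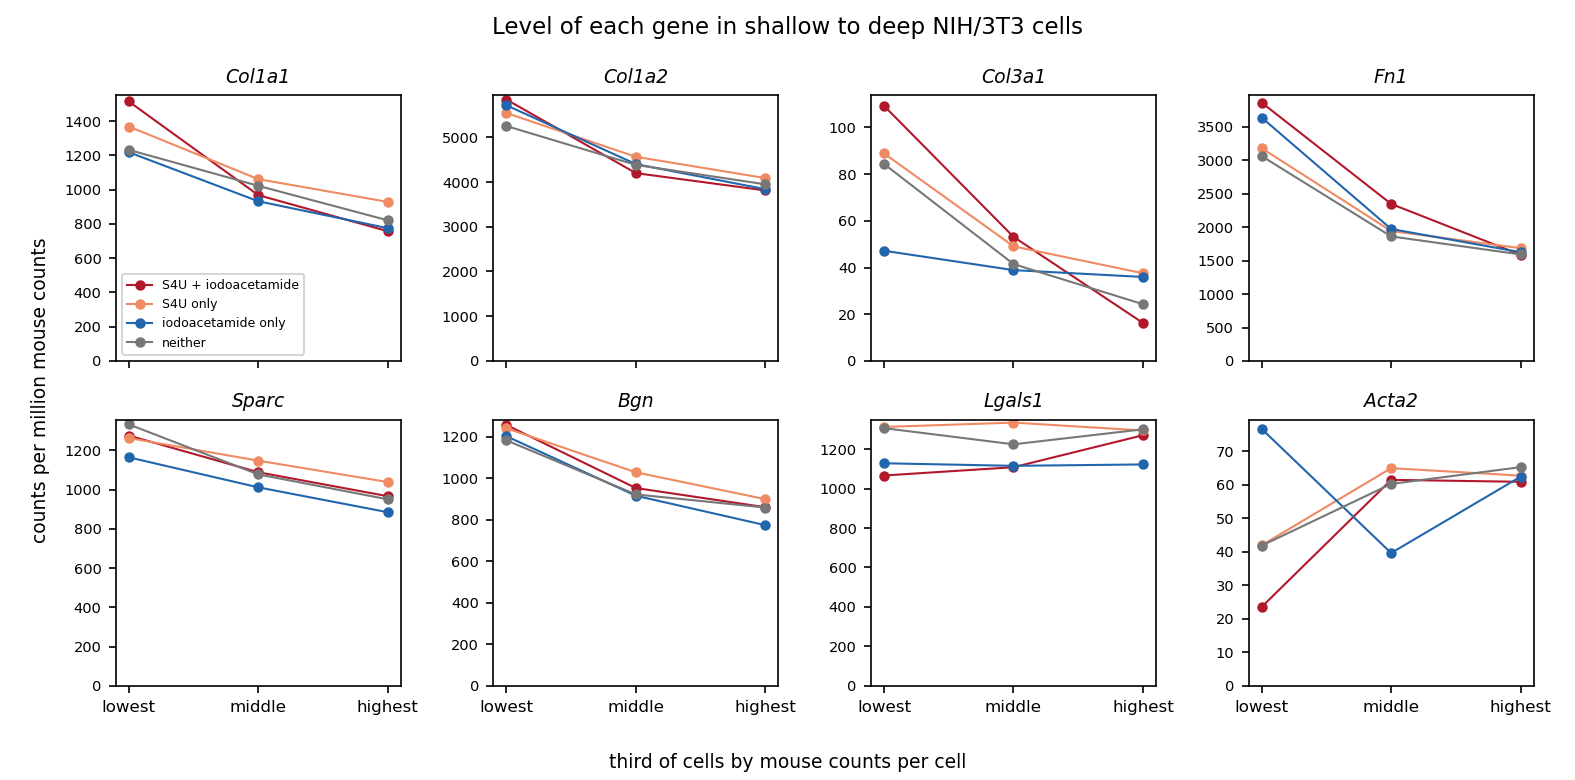
CPM of 8 genes in equal parts of the NIH/3T3 cells of each labelling group, split by mouse counts per cell, with 1 line per group. Fn1 runs from 3864 to 1588 in labelled cells and falls in all 4 groups, as do Col1a1, Col1a2, Col3a1, Sparc and Bgn, while Lgals1 stays between 1066 and 1334 and Acta2 takes no common course.

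Most cells carried the abundant matrix genes. In labelled cells the median cell had 26 counts of Col1a2, 11 of Fn1, 7 of Sparc, 7 of Lgals1, 6 of Bgn and 5 of Col1a1. Thinned to 1000 counts per cell, Col1a2 was found in 401 of 420 labelled NIH/3T3 cells, or 95.48% (93.03% to 97.25%), against 0.3322% of 903 human cells of the same group. The unthinned share was 100%. Median depths before thinning were 6695 counts in the mouse and 6720 in the human cells.

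The thinned shares were 77.62% for Fn1, 66.67% for Lgals1, 64.05% for Sparc, 59.05% for Bgn and 54.76% for Col1a1, against 0.443% or less of human cells. Unthinned these were 98.59%, 94.82%, 96.24%, 96.24% and 91.29%. Acta2 was found in 5.476% of thinned cells (18.35% unthinned) and Col3a1 in 5% (14.59% unthinned), and neither in any of the 903 human cells, for which the exact upper limit is 0.4077%. Tagln was found in 1 of 420 cells and Thbs1 in 0 of 420, for which the exact upper limit on the share of cells with a count is 0.8745%.

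Fn1 and Col1a1 varied more from cell to cell than most genes of like mean, and so did Col3a1 and Acta2 at their low levels. In cells thinned to 1000 counts the variance over the mean of Fn1 was 4.431 in labelled cells, 4.049 with S4U only, 3.647 with IAA only and 3.495 with neither. The medians of genes of like mean, which number 14 to 22, were 1.28 to 1.289. Col1a1 had 3.028, 2.043, 2.166 and 1.815, against medians of 1.135 to 1.183. Col3a1 had 1.624, 1.535, 1.269 and 1.345, and Acta2 1.417, 1.211, 1.563 and 1.487, against medians of 1.01 to 1.02. Col1a2 had 3.271, 2.556, 3.042 and 2.351, but only 6 to 10 genes were of like mean. It lay below their 90th percentile in labelled cells (3.718) and with S4U only (5.044). Sparc, Bgn and Lgals1 had 1.163 to 1.422, against medians of 1.129 to 1.183. Bgn was above the 90th percentile of genes of like mean with S4U only (1.422 against 1.344) and with IAA only (1.373 against 1.361). Sparc was above it with IAA only (1.41 against 1.361). In their other groups Bgn and Sparc were below it, as was Lgals1 in all 4.

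Acta2 and Col3a1 were held by few cells. The 5% of cells with the most Acta2 counts held 57.89% of them in labelled cells, 58.26% with S4U only, 61.04% with IAA only and 57.59% with neither. For Col3a1 these were 63.57%, 57.95%, 57.49% and 67.5%. The highest labelled cell had 13 counts of Acta2, and 6 cells had 5 or more.

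Cells rich in type I collagen mRNA tended to be rich in Fn1, Sparc, Bgn and Col3a1 as well. Correlations below are Pearson's r across cells of depth-adjusted counts, given as a description, and all cells of a group share 1 culture and library. Col1a1 and Col1a2 had 0.5434 to 0.6697 over the 4 groups, the highest of the 28 pairs among 8 genes in each group. Col1a2 had 0.4794 to 0.5645 with Sparc and 0.432 to 0.521 with Fn1. Col1a1 and Col3a1 had 0.3277 to 0.4481, and Sparc and Bgn 0.3159 to 0.4192.

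Lgals1 stood on the other side from Fn1 and the collagens, but not from Sparc and Bgn. It had -0.2289 to -0.1469 with Fn1 and -0.1232 to -0.09567 with Col1a1 over the 4 groups, which are weak values. With Sparc it had -0.08721 to 0.03855 and with Bgn -0.02407 to 0.06553, with no 1 sign over the groups. On a log scale both of these pairs were weakly positive in all 4 groups. Acta2 had 0.04442 to 0.127 with Lgals1 and -0.02966 to 0.02441 with Col1a1. In all 4 groups 17 of the 28 pairs were positive and 6 negative. Within the equal parts by depth the same 17 were positive, and 5 of the 6 negative pairs were negative. The sixth, Sparc and Acta2, was not, and Col3a1 and Bgn were negative in all 4 groups only within the parts. Within these parts Col1a1 and Col1a2 had 0.5305 to 0.5921, and Fn1 and Lgals1 -0.2109 to -0.1479.

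**Figure D5:**
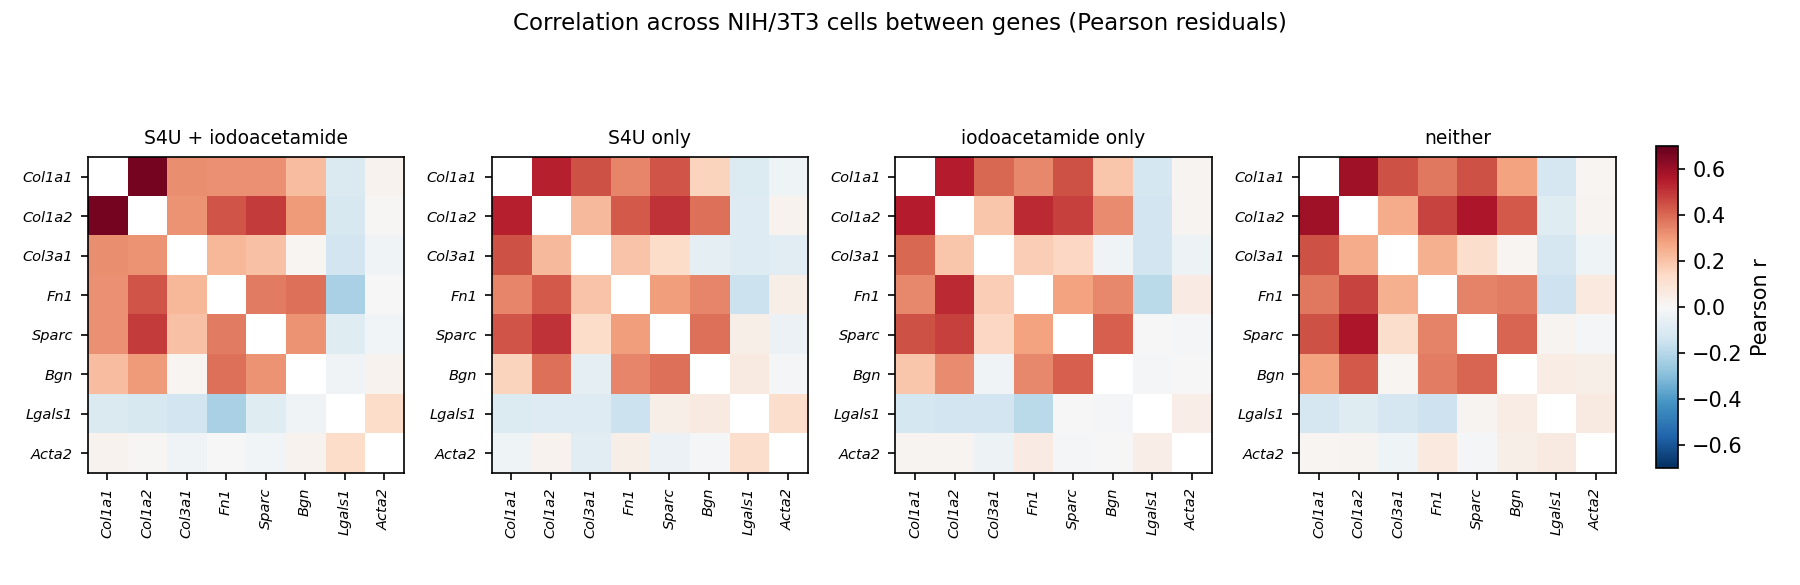
Pearson's r across NIH/3T3 cells between 8 genes in each of the 4 labelling groups, from depth-adjusted counts; red is positive, blue negative, and the diagonal is left blank. The type I collagen pair is the darkest cell in each panel (0.5434 to 0.6697), and the row of Lgals1 is pale blue against Col1a1, Col1a2, Col3a1 and Fn1.

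The genes most alike across labelled cells were sought for each of the 8 genes among 4212 mouse genes. Picking the highest r of many favours high values in labelled cells, so the other groups, not used for the picking, give the fairer value. For Fn1 these were Lox (lysyl oxidase, which cross-links collagen, r of 0.4877), Gas1 (0.4684) and Ogn (osteoglycin, a small proteoglycan, 0.4427). In the other groups Lox had 0.4782 with S4U only, 0.5217 with IAA only and 0.5228 with neither. Gas1 had 0.4586 to 0.4721 there and Ogn 0.4528 to 0.487. For Col1a2 they were Col4a5 (0.4016), Col5a1 (0.3929) and Malat1, a nuclear non-coding RNA (0.3797). In the other groups Col4a5 had 0.3013 to 0.3248, Col5a1 0.3618 to 0.4384 and Malat1 0.2775 to 0.336. For Col1a1 they were Pcolce (which enhances procollagen C-proteinase, 0.3913), Fbn1 (fibrillin-1, 0.3633) and Maml2 (0.3527). In the other groups Pcolce had 0.1706 to 0.2482, Fbn1 0.1741 to 0.2577 and Maml2 0.09625 to 0.1482.

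For Sparc they were Lox (0.3689), P4hb (0.3392) and Serpinh1 (0.3084), and for Bgn Tapbp (0.3352), Lox (0.3109) and Gas1 (0.2857). In the other groups Lox had 0.3234 to 0.3788 with Sparc, P4hb 0.2084 to 0.3871 and Serpinh1 0.2502 to 0.27. With Bgn, Tapbp had 0.1801 to 0.24 there, Lox 0.3066 to 0.3643 and Gas1 0.3166 to 0.3505. For Col3a1 they were Nrp2 (0.3488), Adamts12 (0.2939) and Dlk1 (0.285). In the other groups Nrp2 had 0.2067 to 0.3323, Adamts12 0.1077 to 0.2004 and Dlk1 0.3095 to 0.3737. Lgals1 was most like Actb (0.3671), the ribosomal protein gene Rpl11 (0.3074) and the thioredoxin gene Txn1 (0.3068). In the other groups it had 0.3119 to 0.3317 with Actb, 0.257 to 0.3599 with Rpl11 and 0.3297 to 0.4074 with Txn1. The nearest genes of Acta2 were Rpa1 (0.2435), Myadm (0.2088) and Sh3bgrl3 (0.203). In the other groups Rpa1 had 0.08958 to 0.1888 and Myadm 0.04065 to 0.06579, and Sh3bgrl3 had -0.04202 with IAA only. The genes near Fn1, Sparc and Bgn share Lox, which had 5055 counts and a new share of 34.64% in labelled cells, above that of all 3.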

How the data were processed

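Per the labels, RNA was captured with an oligo-dT primer holding a random stretch, so counts are of 3′ ends. The authors deposited whole-number counts per gene and cell, once for all RNA and once for RNA called new. The submitters' processing notes name Trim Galore 0.4.1, STAR 2.5.2b, SAMtools 1.3, Picard 1.105 and the builds hg19 and mm10. The sources used here do not say how counts were called new or how duplicates were collapsed. The authors' cell annotation gave species and labelling group, and also a fraction of reads with changes per cell, which the authors deposited and which was not used for any result here.

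Counts were summed over NIH/3T3 cells of each group with Python 3.11.15. The new share is new over whole counts, with a Clopper-Pearson interval; CPM has an exact Poisson interval and ratios a conditional binomial one, all at 95%. Depth was 3085966 to 9136422 mouse counts per group. Ratios needed 50 counts over both groups, and shares set among all genes 500. Correlations used Pearson residuals of a negative binomial with theta of 100. Thinning used 1000 counts per cell. edgeR 4.0.16 and DESeq2 1.42.0 gave alternative scalings only, since 1 culture per group allows no test. Intervals were checked on simulated Poisson and binomial counts. These hold the same counting error that the intervals assume, so the check says nothing of the spread between cells or cultures. The named genes were the 10 genes, the 3 highest and 3 lowest new shares of each other list at 500 counts or more, and the 3 most alike genes of each member with a mean of at least 0.3 counts per cell. The genes and lists were chosen with earlier results of these data known.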

Additional observations from a re-analysis of the deposited data

How the results depend on the processing

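The new share of the 10 genes together, 16.68%, was 15.67% with the IAA-only share subtracted, and the median over genes, 16.69%, was 15.42% over the 6 genes with at least 500 counts. The count of genes past 1.5-fold, 0 in each of the 4 comparisons, became 1 in each with no minimum count. That gene was Thbs1 for S4U with IAA and for IAA without S4U, and Tagln for the other two, on 23 or fewer counts. With cells at or above the median depth it became 1 for S4U with IAA and 1 for IAA with S4U. In both the gene was Col3a1, at 0.6149 and 0.5579 on part of its 129 counts in labelled cells, and the cause was not tested. The share of all genes past 1.5-fold is not given for either setting, so these calls say little about the genes. TMM, DESeq2's size factors and protein-coding totals left the count at 0. The median correlation in labelled cells, 0.1659, was 0.1314 on a log scale. Percentiles of the new share moved with the set of genes, for Bgn to 0.1085 with a minimum of 200 counts and 0.6993 with 1000, and for Col1a2 to 9.87 and 27.27. Lgals1 had 12.53% new as a mean over cells. Splitting each group by the number in the cell names, a choice made after seeing the data, gave 16.45% and 16.92% for the 10 genes, and 5, 7, 7 and 5 of 8 genes kept 1 side of 1 in both parts for S4U with and without IAA and IAA with and without S4U. No paired analysis was possible because each labelling group is 1 culture and no replicate numbers are shared. Depth limits Col3a1 and Acta2, whose intervals are wide, and gives no share for Thbs1 and Tagln.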
